A study of Mus musculus with 16 samples.

Results

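The genes described here encode serum amyloid A proteins (Saa1 to Saa4), orosomucoids (Orm1 to Orm3), lipocalin 2 (Lcn2), haptoglobin (Hp) and serum amyloid P component (Apcs). All 10 are acute phase plasma protein genes, and they were taken by symbol from the array's annotation, each through a probe set listed for a single gene. For 9 of them such a probe set existed, out of 19237 genes measured that way. Saa1 was left out of the gene-level results because its listed probe set is assigned to Saa1 and Saa2 together. The livers came from mice aged 17 to 19 weeks that ate freely until they were killed at 7 am, 1 Affymetrix whole-transcript array per liver. There were 8 livers of the genotype LRH-1 hep +/+ (control) and 8 of LRH-1 hep-/- (knockout), described as biological replicates. LRH-1, encoded by Nr5a2, is a nuclear receptor of hepatocytes, and the notation marks its loss in the liver. The sources used here name neither the driver of the deletion nor the strain or sex of the mice. Levels are log2 of the deposited intensity, where 1 unit is a doubling.

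Acute phase proteins are made by hepatocytes and released into the blood when cytokines, above all interleukin 6 and interleukin 1, signal tissue injury or infection. Interleukin 6 acts through gp130 and STAT3, interleukin 1 through NF-kB, and C/EBP factors act on many of the same promoters. Serum amyloid A1 and A2 bind to high density lipoprotein and are the most inducible of the group, A3 is made largely outside hepatocytes, and A4 is produced constitutively. Orosomucoid, or alpha-1-acid glycoprotein, is a plasma carrier of basic and lipophilic drugs that dampens immune cells. Lipocalin 2 withholds iron from bacteria by binding their siderophores. Haptoglobin captures free haemoglobin, and serum amyloid P is a pentraxin that is the major acute phase reactant of this family in the mouse.

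The genes lie in 2 clusters and at 3 single sites. In the RefSeq table of GRCm38.p6, Saa3, Saa4, Saa1 and Saa2 follow each other on chromosome 7, Saa1 and Saa2 in opposite orientation. Orm1, Orm3 and Orm2 follow each other on chromosome 4. Lcn2 is on chromosome 2, Hp on chromosome 8 and Apcs on chromosome 1. The upstream sequences of the 4 genes that were higher in knockout are shown, with that of Saa1 as the near copy of Saa2. Each is the first 250 bases of the gene's promoter window in RefSeq (GRCm38.p6), which end at the start site used for that window, 5′ to 3′ on the gene's strand. For Saa1 and Orm3 that site lies inside the gene's outermost annotated extent, so that 201 and 89 of the 250 bases are within it, and for Saa3, whose sequence is not shown, all 250 are. Capitals mark matches to the C/EBP-type motifs TTGCNNAAT and TTGCNNAA, on either strand, where the second overlaps the first.
Saa1 (chr7:46742981-46743230, - strand): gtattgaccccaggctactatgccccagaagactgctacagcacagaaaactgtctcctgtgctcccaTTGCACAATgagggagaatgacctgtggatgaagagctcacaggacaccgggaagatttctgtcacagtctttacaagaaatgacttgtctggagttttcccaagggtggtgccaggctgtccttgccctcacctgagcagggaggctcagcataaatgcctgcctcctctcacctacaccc
Saa2 (chr7:46751583-46751832, + strand): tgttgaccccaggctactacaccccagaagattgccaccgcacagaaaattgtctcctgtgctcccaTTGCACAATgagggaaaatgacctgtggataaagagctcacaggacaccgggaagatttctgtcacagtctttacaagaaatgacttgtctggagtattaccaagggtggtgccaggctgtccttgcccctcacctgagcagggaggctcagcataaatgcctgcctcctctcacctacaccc
Orm2 (chr4:63362199-63362448, + strand): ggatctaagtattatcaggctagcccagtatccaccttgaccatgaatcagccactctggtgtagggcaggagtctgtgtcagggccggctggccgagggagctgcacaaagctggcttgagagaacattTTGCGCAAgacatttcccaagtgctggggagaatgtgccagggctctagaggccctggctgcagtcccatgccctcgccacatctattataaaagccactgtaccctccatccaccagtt
Orm3 (chr4:63355908-63356157, + strand): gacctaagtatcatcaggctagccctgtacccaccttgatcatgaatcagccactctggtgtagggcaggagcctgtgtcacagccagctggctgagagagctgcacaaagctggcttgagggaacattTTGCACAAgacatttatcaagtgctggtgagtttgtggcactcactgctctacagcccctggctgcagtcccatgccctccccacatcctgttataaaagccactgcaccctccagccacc
Lcn2 (chr2:32387740-32387989, - strand): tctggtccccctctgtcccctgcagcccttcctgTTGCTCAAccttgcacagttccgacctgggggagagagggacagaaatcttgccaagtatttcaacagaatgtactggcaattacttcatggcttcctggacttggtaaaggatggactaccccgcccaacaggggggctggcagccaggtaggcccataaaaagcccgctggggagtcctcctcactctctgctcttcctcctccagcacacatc

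The Saa1 and Saa2 stretches were identical at 94.8% of aligned positions and those of Orm2 and Orm3 at 85.9%. A promoter window of 300 bases, from 250 before to 50 after the start, was given for 8 of the 10 genes, not for Orm1 and Hp. The motif TTGCNNAAT was found in the windows of Saa1, Saa2, Saa3 and Saa4 and in 2.40% of all 32851 windows of that length. The shorter TTGCNNAA, added after the sequences were seen, was found in 7 of the 8 windows, all but that of Apcs, and in 10.8% of all windows. The STAT3 motif TTCNNNGAA was found in the window of Apcs alone among the 8 and in 8.30% of all windows. Both strands were searched. TTGCNNCAA, another C/EBP-type motif, and 2 spellings of the NF-kB motif, given by name alone, were found in none of the 8 windows, and in 2.08%, 1.63% and 1.75% of all windows. The LRH-1 motifs CAAGGTCA and CAAGGCCA were also found in none of the 8, and in 1.56% and 2.40% of all windows. These are matches of letters in short windows and not tested sites.

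Nr5a2, the targeted gene, separated the genotypes without overlap, with control livers at 8.66 ± 0.13 (SD, n = 8) and knockout livers at 7.78 ± 0.37 (SD, n = 8). Over the whole table, limma called 1673 of 19237 genes, or 8.70%, at a Benjamini-Hochberg adjusted p under 0.05, of which 5.49% of all genes were higher and 3.20% lower in knockout. Higher genes were 63.2% of these calls, and 53.4% of the calls made after median centring (761 higher, 663 lower), which moved the median difference of all genes to -0.03. None of the 8 hepatocyte markers passed limma, 3 having an unadjusted p under 0.05, albumin (Alb) differing by -0.0016 ± 0.05 and transthyretin (Ttr) by -0.0075 ± 0.06. Control 5, control 8 and knockout 1 held adipocyte transcripts, with Adipoq at 5.04 or more there and at 3.52 or less in the other 13 livers. Knockout 8 and control 1 stood apart over the table, as the highest knockout liver for 6150 and the highest control liver for 5594 of the 19237 genes. The genotype difference of each acute phase gene was also computed without the 3 arrays with adipocyte transcripts, without knockout 8 and without control 1, while the contrasts between paralogs and the correlations were not.

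Lcn2, Saa2, Orm2 and Orm3 were higher in knockout livers, and the other 5 measured genes did not pass the test. These 4 of 9 genes compare with 5.49% of all genes called higher. The mean differences were 4.84-fold for Lcn2, 3.48-fold for Saa2, 2.33-fold for Orm2 and 2.30-fold for Orm3. For Lcn2, Orm2 and Orm3 every knockout liver lay above every control liver, which was so for 1.69% of all genes, and 2.89% of all genes did not overlap in either direction. The exact rank-sum test called the same 4 of 9 genes, beside 7.48% of all genes in either direction. The median difference over the 9 genes was 0.39 log2 unit, beside 0.0019 over all genes. In bulk liver, more transcript per cell and more cells that carry the transcript cannot be told apart.

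**Figure D1:**
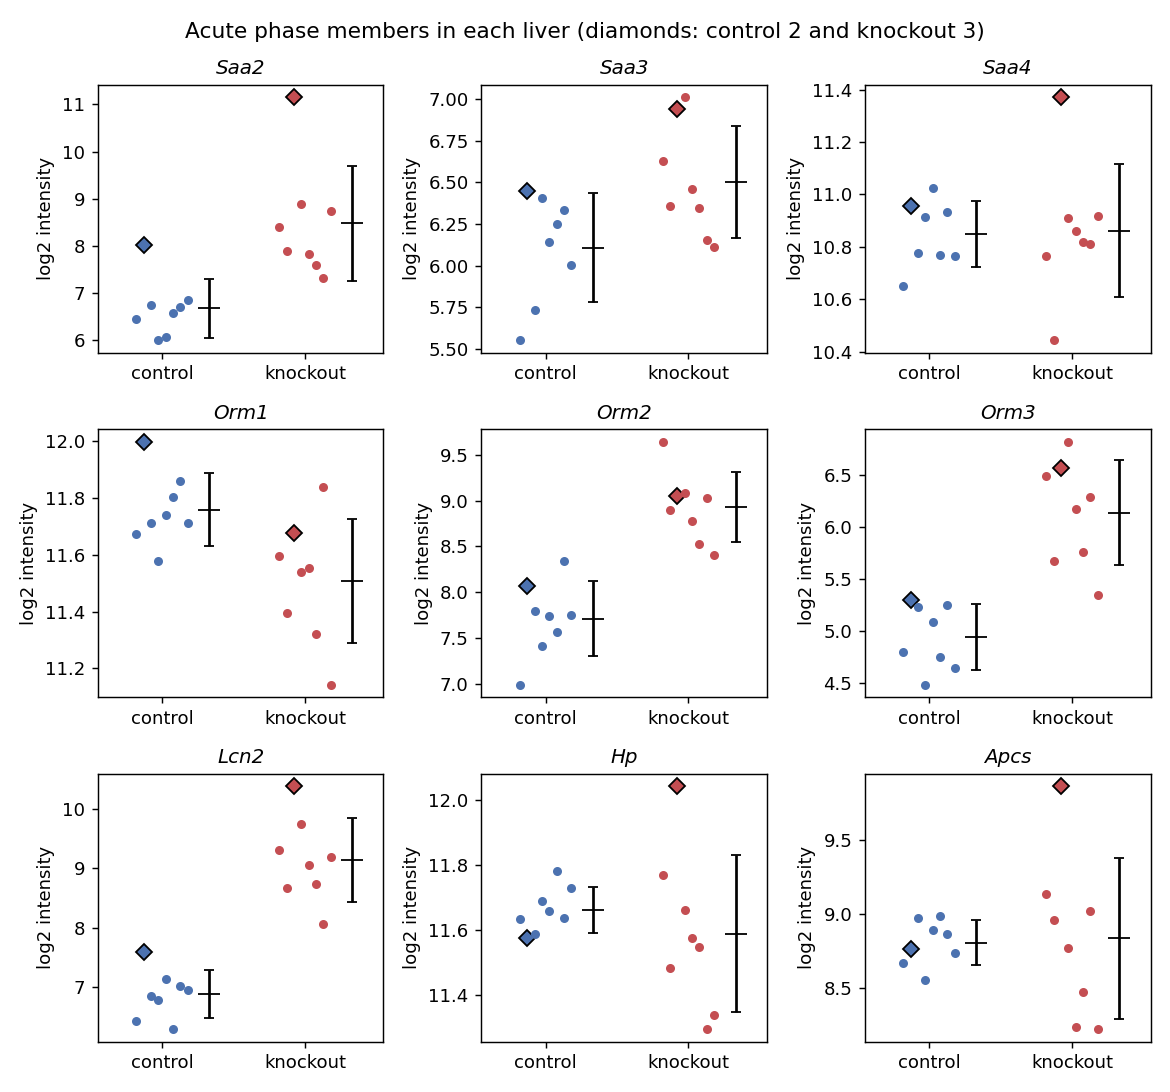
Log2 intensity of each of the 9 genes in 8 control and 8 knockout livers. Points are livers, diamonds are control 2 and knockout 3, and the bars beside them give the mean ± SD. Lcn2, Orm2 and Orm3 do not overlap between genotypes, while in Saa4, Hp and Apcs knockout 3 is the highest liver of all 16.

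Saa2, which encodes an inducible serum amyloid A carried on lipoprotein particles, ranged in controls from 5.99 over a median of 6.64 to 8.01. In knockouts it ranged from 7.31 over a median of 8.15 to 11.16. A high liver in each genotype set the ends of these ranges: control 2 stood at 8.01 with the other controls at 6.86 or less, and knockout 3 at 11.16 with the next knockout at 8.89. Because of control 2 the genotypes overlapped, with 4 knockouts above all controls and 7 controls below all knockouts. The mean difference was 1.80 ± 0.41 log2 units (SE, limma adjusted p = 0.00584). Without knockout 3 it was 1.42 (limma adjusted p = 0.00125), so that the estimate was smaller and the p lower. Without both high livers it was 1.61 ± 0.22 (limma adjusted p = 7.47e-05). The difference of medians, which a single liver hardly moves, was 1.51, and an exact rank-sum test adjusted over all genes gave 0.0287.

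The probe set listed for Saa1 and Saa2 together cannot be assigned to either gene. It ranged from 4.44 over a median of 4.52 to 5.66 in controls and from 5.33 over a median of 6.5 to 8.94 in knockouts. The same livers were at the top, control 2 at 5.66 and knockout 3 at 8.94, with the next livers at 4.79 and 6.69. In a limma fit over all 35556 probe sets its difference was 1.87 ± 0.36 (SE, adjusted p = 0.0033). The RefSeq table lists Saa1 and Saa2 as synonyms of each other, so the naming of the single-gene probe set rests on the annotation's gene identifier.

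Saa3, the serum amyloid A known from macrophages and adipocytes, ranged from 5.55 over a median of 6.19 to 6.45 in controls and from 6.11 over a median of 6.41 to 7.01 in knockouts. The 2 highest livers were knockout 4 and knockout 3, at 7.01 and 6.94, and 4 knockouts lay within the control range. Its difference of 0.39 ± 0.15 had a limma adjusted p of 0.117, and no fit without 1 liver passed. Saa4, the constitutive member, ranged from 10.65 over a median of 10.85 to 11.03 in controls and from 10.44 over a median of 10.84 to 11.37 in knockouts, so that knockouts held both the lowest and the highest liver. Its difference was 0.01 ± 0.09 (limma adjusted p = 0.986), with a 95% interval from -0.18 to 0.21, and it was -0.06 without knockout 3, the highest liver at 11.37. The genotype differences of the family members were set against each other within livers. That of Saa2 exceeded that of Saa3 by 1.41 ± 0.43 log2 units (SE, exact permutation p = 0.0014, 0.0021 adjusted over 6 pairs of family members) and that of Saa4 by 1.78 ± 0.42 (exact permutation p = 0.000622, adjusted 0.00124). Saa3 exceeded Saa4 by 0.38 ± 0.14 (exact permutation p = 0.0172, adjusted 0.0207). Not all knockout livers lay above all controls in these contrasts. Those that did numbered 4 for Saa2 against Saa3, 5 for Saa2 against Saa4 and 6 for Saa3 against Saa4. How far the contrasts rest on knockout 3 was not tested.

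Of the 3 orosomucoid genes, 2 rose and 1 did not pass with a difference below 0. Orm2 ranged in controls from 6.99 over a median of 7.75 to 8.35 and in knockouts from 8.41 over a median of 8.96 to 9.64. The highest control was control 7 and the lowest knockout was knockout 8, and the genotypes did not overlap. Its difference was 1.22 ± 0.17 (SE, limma adjusted p = 5.06e-05), and knockout 3 was not at its top, with a value 0.14 above the mean of the other knockouts. Orm3, a second orosomucoid with a lower signal, ranged from 4.48 over a median of 4.94 to 5.30 in controls and from 5.34 over a median of 6.23 to 6.82 in knockouts. The genotypes were separated by a narrow gap between control 2 at 5.30 and knockout 8 at 5.34. The difference of Orm3 was 1.20 ± 0.18 (SE, limma adjusted p = 0.000112). Its geometric mean intensity in controls, 30.7, lay below the array medians of 38.9 to 43.5. Whether so low a signal narrowed its difference was not tested. Leaving out any single liver kept the differences between 1.11 and 1.31 for Orm2 and between 1.102 and 1.31 for Orm3.

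Orm1 stood at 11.76 ± 0.13 in control livers and 11.51 ± 0.22 in knockout livers (SD, n = 8 each). Controls ranged from 11.58 over a median of 11.72 to 11.998 and knockouts from 11.14 over a median of 11.55 to 11.84, with 5 knockouts below all controls. Knockout 7, at 11.84, was the knockout closest to the top of the control range. The difference of -0.25 ± 0.09 did not pass (limma adjusted p = 0.0846), and it did without knockout 7 (-0.30, limma adjusted p = 0.0267). Whether the differences within the family were unequal was tested directly. The difference of Orm1 lay below that of Orm2 by a contrast of -1.47 ± 0.16 log2 units (SE, exact permutation p = 0.000155, the smallest that 12870 assignments allow, adjusted 0.000466). Against Orm3 the contrast was -1.45 ± 0.15 (exact permutation p = 0.000155, adjusted 0.000466), and in each contrast all 8 knockout livers lay below all controls. Orm2 and Orm3 differed by 0.02 ± 0.16 (exact permutation p = 0.91, adjusted 0.91). The 3 genes are close paralogs, and how far their probes read each other's transcripts was not tested.

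Lcn2 had the largest difference of the 9 genes. It ranged in controls from 6.28 over a median of 6.89 to 7.59 and in knockouts from 8.07 over a median of 9.13 to 10.39. The highest control was control 2, with the next at 7.13, and the highest knockout was knockout 3, with the next at 9.75. Even so the lowest knockout, knockout 7, lay above control 2. The difference was 2.27 ± 0.25 (SE, limma adjusted p = 1.93e-06), the difference of medians was 2.23, and leaving out any single liver gave values from 2.10 to 2.43. Without both high livers it was 2.20 ± 0.20 (limma adjusted p = 6.23e-07), and without the 3 arrays with adipocyte transcripts 2.30 ± 0.29 (limma adjusted p = 7.28e-05).

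Hp and Apcs did not pass the test, and their knockout livers were more scattered than their controls. Hp, the haptoglobin gene, ranged from 11.57 over a median of 11.65 to 11.78 in controls and from 11.29 over a median of 11.56 to 12.04 in knockouts. Knockout 3 was above all controls and 4 knockouts were below all of them. Its difference was -0.07 ± 0.09 (limma adjusted p = 0.812), with a 95% interval from -0.25 to 0.11. Apcs, the pentraxin gene, ranged from 8.55 over a median of 8.81 to 8.98 in controls and from 8.22 over a median of 8.86 to 9.86 in knockouts. Here 3 knockouts lay above and 3 below all controls, knockout 3 being the highest at 9.86 and the next at 9.13. Its difference was 0.03 ± 0.17 (limma adjusted p = 0.982), with a 95% interval from -0.33 to 0.39, and -0.12 without knockout 3. The SD among knockouts was 3.44 times that among controls for Hp and 3.60 times for Apcs, beside a median ratio of 1.04 over all genes. Without knockout 3 these ratios were 2.41 and 2.51.

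**Figure D2:**
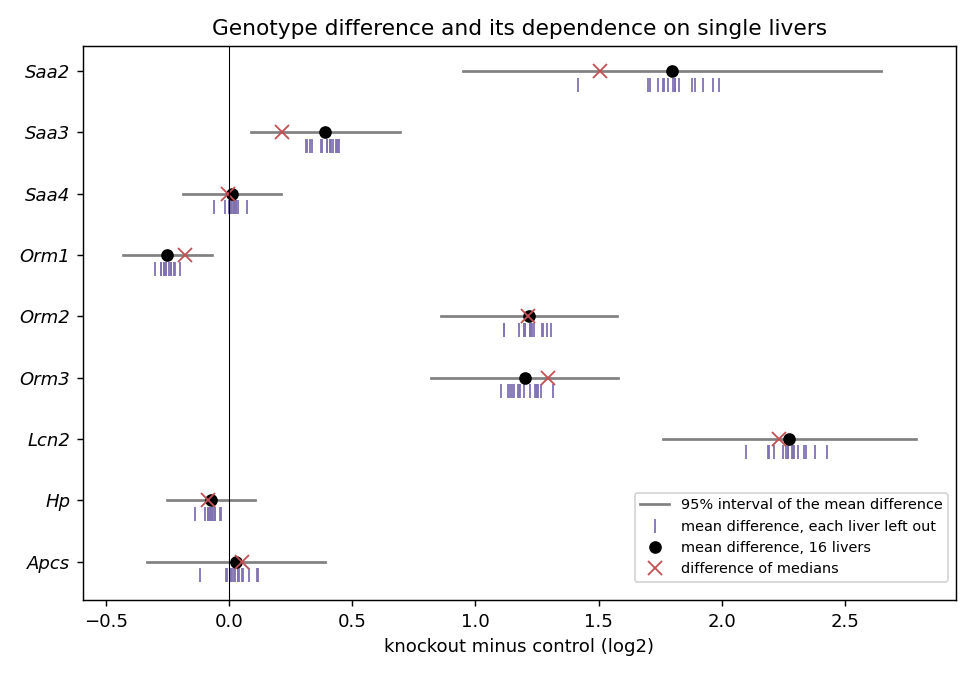
Knockout minus control on the log2 scale for each of the 9 genes. Black points are mean differences over 16 livers with 95% limma intervals (grey lines), crosses are differences of medians, and ticks below are the mean differences with each liver left out in turn. For Saa2 the tick furthest left, 1.42, is the fit without knockout 3, while the ticks of Orm2, Orm3 and Lcn2 stay far from 0.

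The genes thus fell into different patterns across livers. In Lcn2, Orm2 and Orm3 all 8 knockouts were above all controls. In Saa2 a shift shared by the knockouts came with a single liver in each genotype far above the rest. In Saa4, Hp and Apcs the highest liver was knockout 3 and the means of the genotypes differed little. Knockout 3 was above the mean of its genotype in 9 of 9 genes and the highest knockout in 5, Saa2, Saa4, Lcn2, Hp and Apcs. Over all genes it was the highest knockout for 9.34%. Relative to the mean of the other knockouts it was 8.36-fold higher for Saa2, 2.68-fold for Lcn2, 2.26-fold for Apcs, 1.498-fold for Saa4, 1.43-fold for Hp and 1.103-fold for Orm2. Control 2 was the highest control in 5 of 9 genes, Saa2, Saa3, Orm1, Orm3 and Lcn2, beside 6.43% of all genes. It stood 2.88-fold above the mean of the other controls for Saa2 and 1.76-fold for Lcn2, but at 0.933-fold for Hp and 0.966-fold for Apcs. Knockout 8 was the lowest knockout in 5 of 9 genes, Saa3, Orm1, Orm2, Orm3 and Apcs. For how many of all genes it was the lowest knockout was not computed, so this count has no background to compare with. Knockout 8 stood apart over the whole table, as the highest knockout for 6150 of the 19237 genes.

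**Figure D3:**
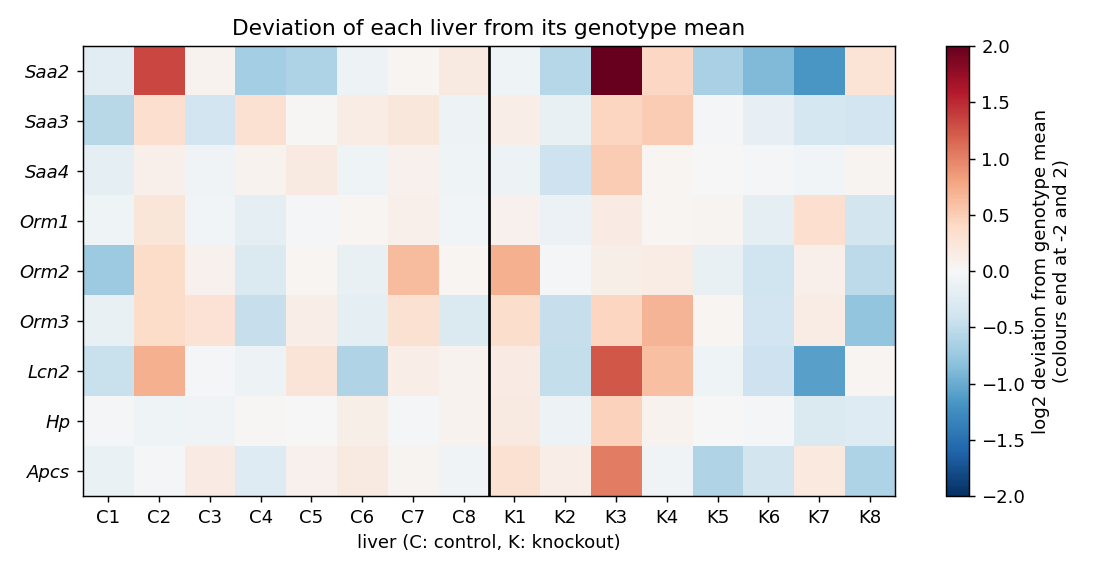
Log2 deviation of each liver (columns) from the mean of its genotype for the 9 genes (rows), controls left and knockouts right of the line. Red is above and blue below the genotype mean, and colours saturate below the Saa2 value of knockout 3. Knockout 3 is red in all 9 rows, and control 2 is red in 7.

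Saa2 and Lcn2 varied together across livers, most clearly among the knockouts. Over the deviations of the 16 livers from their genotype means, Pearson's r was 0.842 and Spearman's rho 0.729 (permutation p = 0.00024 and 0.00361, adjusted over 36 pairs 0.00864 and 0.0325). Pearson's r was 0.659 without the 2 livers farthest from the median of Saa2, 0.585 within the controls and 0.919 within the knockouts. Among the controls, control 2 was the highest for both genes, at 8.01 for Saa2 and 7.59 for Lcn2. Control 5, the next highest control for Lcn2 at 7.13, was low for Saa2 at 6.06. The r within the controls was not computed without control 2, on which it leans. The orosomucoid genes varied together, with r = 0.692 for Orm2 and Orm3 (permutation p = 0.00276, adjusted 0.0331), 0.755 for Orm1 and Orm3 (permutation p = 0.00257, adjusted 0.0331) and 0.644 for Orm1 and Orm2 (permutation p = 0.00772, adjusted 0.0527). The rho values were 0.812, 0.771 and 0.756 (permutation p adjusted 0.0191, 0.0264 and 0.0264), and without the 2 farthest livers r was 0.767, 0.749 and 0.664. Within the controls r was 0.680, 0.719 and 0.686, and within the knockouts 0.742, 0.769 and 0.663. For Saa2 and Orm2, from different families, r was 0.266 and rho 0.447 (permutation p = 0.319 and 0.1, adjusted 0.383 and 0.2). Other pairs across families were closer. For Saa3 and Lcn2 r was 0.671 and rho 0.606 (permutation p adjusted 0.049 and 0.0756). For Saa4 and Lcn2 r was 0.7245 and rho 0.629 (permutation p adjusted 0.0527 and 0.0624). Within the serum amyloid A family, Saa2 and Saa3 did not pass, with r = 0.498 and rho = 0.388 (permutation p adjusted 0.135 and 0.284).

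**Figure D4:**
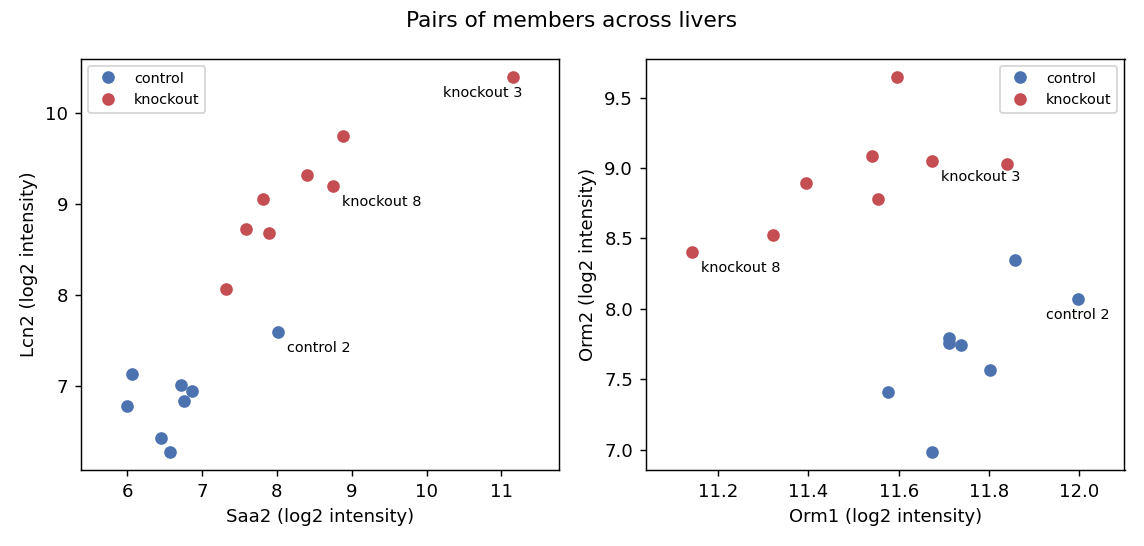
Left, Lcn2 against Saa2, and right, Orm2 against Orm1, both as log2 intensity, 1 point per liver. In the left panel the knockout livers high for 1 gene tend to be high for the other. The control highest for Saa2 is also the highest for Lcn2, and a tendency among the other controls was not tested. In the right panel the livers high for 1 gene tend to be high for the other in each genotype. The knockout points of Orm2 lie above all control points while those of Orm1 extend lower.

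By the rule used to find genes of like pattern, the 3 genes closest to Lcn2 in their deviations across the 16 livers were Steap4 (r = 0.903), a metalloreductase, Dennd4a (0.867) and Dnmbp (0.839). The 3 closest to Saa2 were Steap4 (0.862), Serpina3n (0.862), a protease inhibitor, and Dennd4a (0.848). Those closest to Orm2 were Chd6 (0.868), Rab3gap2 (0.837) and Gm8995 (0.837). The choice was among 8468 genes with a mean of at least 6. Without the 2 farthest livers the r with Saa2 was 0.742 for Steap4, 0.573 for Serpina3n and 0.563 for Dennd4a. With Lcn2 it was 0.768 for Steap4, 0.645 for Dennd4a and 0.681 for Dnmbp. With Orm2 it was 0.811 for Chd6, 0.836 for Rab3gap2 and 0.829 for Gm8995. Dennd4a was lower in knockout, by -0.28 ± 0.07 (limma adjusted p = 0.012), while Saa2 and Lcn2 were higher. Steap4 rose by 0.69 ± 0.14 (limma adjusted p = 0.0022), whereas Serpina3n differed by -0.05 ± 0.14 (limma adjusted p = 0.949), its highest knockout livers being knockout 3 at 12.15 and knockout 8 at 11.29.

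Among 24 other positive acute phase genes, 6 rose and 2 fell, and the median difference was 0.03 beside 0.0019 over all genes. The background shares, for this list and each list below, are 5.49% of all genes called higher and 3.20% called lower. Mt2, a metallothionein, rose by 2.45 ± 0.34 (limma adjusted p = 4.27e-05), with knockout 3 at 11.43 and the next knockout at 9.74. Steap4, above, and Mt1 (1.30 ± 0.27), Cd14 (0.51 ± 0.13), a co-receptor for lipopolysaccharide, Cp (0.25 ± 0.07), the ferroxidase ceruloplasmin, and Hpx (0.20 ± 0.05), the haem carrier hemopexin, made up the rest of the 6, where Mt1, Cd14, Cp and Hpx are named after their values were seen. Itih3, an inter-alpha-trypsin inhibitor chain, fell (-1.32 ± 0.12), as did Agt, angiotensinogen (-0.38 ± 0.06). The fibrinogen genes Fga (-0.10 ± 0.08), Fgb (-0.09 ± 0.06) and Fgg (-0.10 ± 0.07), Crp (-0.26 ± 0.14) and Lbp (0.02 ± 0.16) did not pass and are given, after their values were seen, as classical members. Knockout 3 was the highest knockout for 15 of the 24, beside 9.34% of all genes. Without knockout 3, Cp no longer passed (limma adjusted p = 0.0625), and Fgl1, a fibrinogen-like gene with a difference of -0.46 ± 0.27 over all livers (limma adjusted p = 0.423), passed as lower (-0.73, limma adjusted p = 0.00263), so that 3 genes fell. Without the 3 arrays with adipocyte transcripts 3 of the 24 rose, and without control 2 and knockout 3 it was 5.

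Beside 3.20% of all genes called lower and 5.49% called higher, 2 of 14 genes that fall in the acute phase were lower and 0 higher in knockout. They were Serpina6, the corticosteroid-binding globulin (-1.26 ± 0.11, limma adjusted p = 8.93e-08), and Serpinc1, antithrombin (-0.28 ± 0.05, limma adjusted p = 0.00137). The median difference of the 14 was -0.04, and by unadjusted limma p under 0.05 the count higher was also 0.

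Of 32 genes of interleukin 6, interleukin 1 and TNF signalling, 6 rose and 4 fell, beside 5.49% and 3.20% of all genes. The median difference of the 32 was 0.05. The genes that fell were Lifr (-0.93 ± 0.10), the receptor of leukaemia inhibitory factor, Cebpa (-0.72 ± 0.10), a C/EBP factor of hepatocytes, Il6ra (-0.49 ± 0.09), the interleukin 6 receptor, and Il1rap (-0.25 ± 0.06), the accessory chain of the interleukin 1 receptor. Those that rose included Rela (0.42 ± 0.09), a subunit of NF-kB, and Osmr (0.61 ± 0.14), the oncostatin M receptor. Osmr and Il1rap are named after their values were seen. The others that rose were Bcl3, Nfkb2, Nfkbiz and Myd88, by 0.24 to 0.38. The STAT3 feedback inhibitor Socs3 stood at 6.16 ± 0.21 in controls and 6.19 ± 0.23 in knockouts and Stat3 at 8.95 ± 0.11 and 8.92 ± 0.37, with knockout 3 at 9.65 and the next knockout at 9.07, both given after their values were seen. Without the 3 arrays with adipocyte transcripts, and after median centring, 3 of the 32 rose. Without knockout 3, Myd88 (limma adjusted p = 0.0865) and Nfkbiz (0.0606) no longer passed.

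Among 11 measured receptors and partners of these proteins 2 rose and 2 fell, beside 5.49% and 3.20% of all genes. Cd36, a fatty acid translocase that also binds serum amyloid A, rose by 1.41 ± 0.20 and Cd14, above, is also on this list. Scarb1, which takes up cholesterol from lipoprotein particles, had a difference of -1.05 ± 0.08, and Lrp2, the megalin gene, a receptor of lipocalin 2, changed by -0.21 ± 0.06 at a low level of 4.99 in controls. Slc22a17, a lipocalin 2 receptor, stood at 6.31 ± 0.18 in controls and 6.36 ± 0.21 in knockouts and is given after its values were seen. Without the 3 arrays with adipocyte transcripts 1 of the 11 rose and 1 fell.

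**Figure D5:**
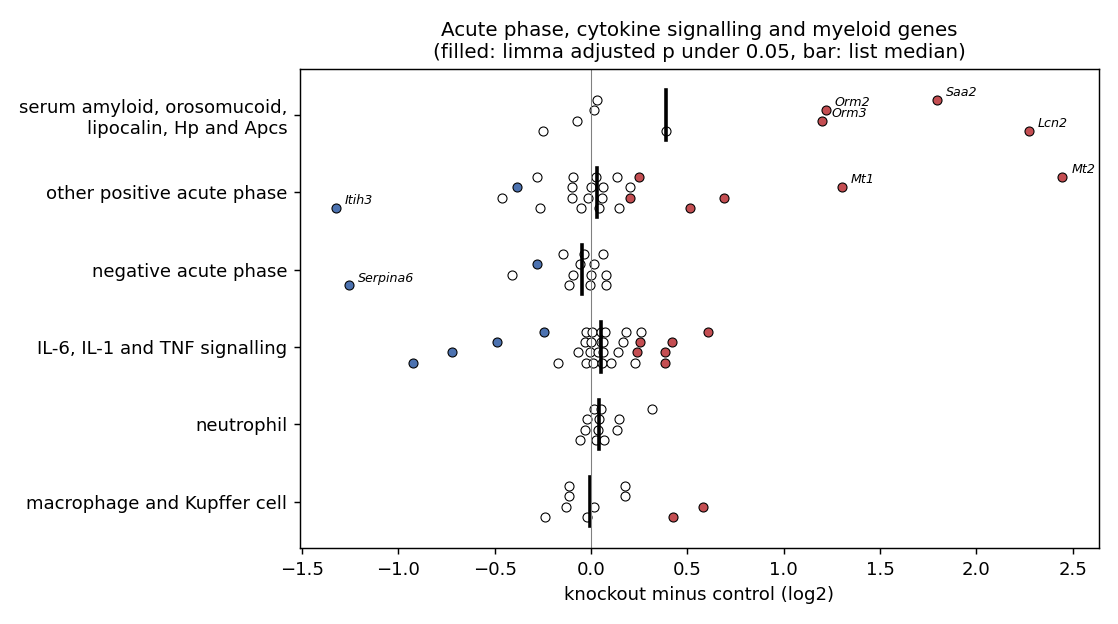
Knockout minus control on the log2 scale for the 9 acute phase genes, 3 related lists and 2 myeloid marker lists, 1 point per gene. Filled points passed limma at an adjusted p under 0.05 (red higher, blue lower in knockout), open points did not, and bars are list medians. The filled neutrophil points number 0, and most other positive acute phase genes lie near 0.

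Lcn2 is also made by neutrophils, and Saa3 by macrophages and adipocytes, so markers of these cells are set beside them. Of 12 neutrophil markers, which include the granule genes Mpo, Elane, Ngp, Camp and Ltf, none passed in limma and 1 (Cxcr2) had an unadjusted p under 0.05. None had a mean above 5.44, a low level at which a change may go unseen. Their summed intensity was 236.0 to 290.6 in controls and 246.8 to 283.3 in knockouts, and the 2 with the highest means, Csf3r and Camp, differed by 0.05 ± 0.09 and 0.01 ± 0.07. Of 10 macrophage and Kupffer cell markers 2 rose and 0 fell, beside 5.49% and 3.20% of all genes, and the median difference was -0.0029. Those that rose were Lyz2 (0.58 ± 0.12), the lysozyme gene, and Ccr2 (0.42 ± 0.10), a monocyte receptor at a low level of 3.40 in controls. The others did not pass and are given after their values were seen. Clec4f (-0.11 ± 0.10), Timd4 (-0.24 ± 0.10), Vsig4 (-0.11 ± 0.19), Cd5l (-0.13 ± 0.16) and Csf1r (-0.02 ± 0.105) lay below 0. Marco (0.17 ± 0.10), Cd68 (0.18 ± 0.12) and Adgre1 (0.01 ± 0.14) lay above it. Timd4 had an unadjusted limma p under 0.05. The summed intensity of the 10 markers was 1720 to 2472 in controls, highest in control 2, and 1439 to 2954 in knockouts, highest in knockout 1. The part of these cells in the levels of Lcn2, Saa2 and Saa3 was not tested. Of 9 adipocyte markers 2 rose, Plin4 (1.07 ± 0.11) and Cidea (2.78 ± 0.32), both lipid droplet proteins that hepatocytes can also make. The summed intensity of adipocyte markers was 277.7 to 1462 in controls and 376.5 to 1625 in knockouts. Without the 3 arrays that held adipocyte transcripts Saa2 differed by 1.74 ± 0.48 (limma adjusted p = 0.0418), Orm2 by 1.13 ± 0.18 and Orm3 by 1.12 ± 0.21, and all 3 passed.

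None of 10 lymphocyte, 7 endothelial or 4 pancreas markers passed limma, with 1, 0 and 0 at an unadjusted p under 0.05, and those with the highest means were Cd3e (0.04 ± 0.10) and Cd79b (0.12 ± 0.09), Clec4g (-0.06 ± 0.12) and Cdh5 (0.02 ± 0.08), and Cela3b (0.14 ± 0.11) and Cpa1 (0.02 ± 0.11). Of 8 stellate and fibroblast markers 4 rose, among them Dcn (0.43 ± 0.07), Reln (0.42 ± 0.10) and Pdgfrb (0.44 ± 0.10), and 1 fell, the retinol enzyme gene Lrat (-0.54 ± 0.12). In the other lists 1 of 6 cholangiocyte markers rose (Epcam, 0.31 ± 0.08), 1 of 5 mesothelium markers rose (Krt18, a keratin that hepatocytes also make, 0.76 ± 0.07) and 1 of 2 erythroid markers fell (Alas2, -0.35 ± 0.08). Over all genes 5.49% were called higher and 3.20% lower.

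Knockout livers differed in the Nr5a2 signal left, from 7.25 to 8.25, and this was set against each of the 9 genes within the 8 knockouts, after the values were seen. No relation passed. For Lcn2 r was 0.362 (exact permutation p = 0.384, adjusted 0.865 over 9 relations) and rho 0.429, and for Orm2 r was -0.463 (exact permutation p = 0.253, adjusted 0.865) and rho -0.262. The smallest p was that of Saa4 by rank, with rho = 0.833 (exact permutation p = 0.0154, adjusted 0.138) and r = 0.544 (exact permutation p = 0.168, adjusted 0.865), r being 0.319 without the 2 farthest livers.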

How the data were processed

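RNA of 16 mouse livers, 8 per genotype, was measured on 1 Affymetrix array each. A whole-transcript kit amplified 100 ng of RNA, which was labelled with biotin, per the labels' protocols. The authors deposited linear probe-set intensity values for which the submitters' processing notes name Affymetrix Expression Console. No version, background correction or normalization is stated in the sources used here. Array medians lay between 38.9 and 43.5. The number of arrays, not a read depth, limits the precision. A difference is thus relative to the rest of the array.

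Values were taken to log2 with no pseudocount, filter or further normalization. Of 35556 probe sets, 21456 were listed for 1 gene, 2376 for several and 11724 for none, by the platform annotation. Symbols were updated through RefSeq gene identifiers (21277 found, 2 updated), and for 1343 genes with several probe sets the one with the highest mean was kept, leaving 19237 genes. The test was limma 3.58.1 (lmFit, eBayes; R 4.3.3), genotype being the single term, with Benjamini-Hochberg adjustment over all genes. Differences are knockout minus control ± SE from that fit. Simulated data were independent normal values with the mean of each of the 19237 genes and its pooled SD, the same in both genotypes. There recovery was 84% for shifts of 0.5 log2 unit and 100% for shifts of 1, and 12 of 196 calls were false. Single high livers and SDs that differ between genotypes, as in Saa2, Hp and Apcs, were not simulated. The exact rank-sum test used all 12870 assignments of the livers. Within a family, log2 differences between 2 paralogs per liver were compared by exact permutation, chosen after the values were seen, with SEs from the SDs of both genotypes. Correlations used deviations from genotype means with 100000 permutations within genotypes, numpy 2.4.6 and scipy 1.17.1.

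The members and lists were chosen with earlier results of these data known. The lists cover other positive and negative acute phase genes, cytokine signalling, receptors and partners, and markers of hepatocytes, neutrophils, macrophages, lymphocytes, adipocytes, stellate cells, endothelium, cholangiocytes, erythroid cells, pancreas and mesothelium. Their members are described by counts and medians with no list test. Named were all members, up to 4 called genes per list with the smallest p, or the 1 or 2 with the highest means where none was called, and the 3 genes of most like pattern for Saa2, Orm2 and Lcn2 (Saa2 in place of Saa1). Alternatives were quantile normalization, a block for the replicate number, median centring, leaving out genes below the 25th or the 50th percentile by mean, the mean of probe sets, an intensity trend with robust variance, array weights, the rank-sum test, each liver left out, and, after the data were seen, removal of the 3 arrays with adipocyte transcripts (Adipoq above 4.5) or of control 2 and knockout 3.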

Additional observations from a re-analysis of the deposited data

Results flagged for a closer look

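Single livers far from the others of their genotype were looked for among the values of 76 genes and probe sets named here, in 152 groups of 8 livers, by the gap to the nearest liver divided by the range, against Dixon's 95% critical value. Chance alone puts about 5% of unselected groups beyond it, and 17 were beyond it here. That share is no measure for these 17, because some genes were named after their values were seen and all share the same livers. For Saa2 these were control 2 at 8.01, with the next control at 6.86, and knockout 3 at 11.16, with the next knockout at 8.89. The probe set listed for Saa1 and Saa2 had the same livers at the top, control 2 at 5.66 with the next at 4.79 and knockout 3 at 8.94 with the next at 6.69. In knockout 3 this was also so for Serpina3n at 12.15 (the next knockout at 11.29), Mt1 at 10.34 (8.48), Fgg at 12.78 (12.41), Fgb at 12.42 (12.16), Lbp at 10.43 (9.5) and Fgl1 at 10.78 (9.26). None of the values of Orm1, Orm2, Orm3, Saa3, Saa4, Lcn2, Hp and Apcs passed this limit.

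Other livers were beyond it for the following genes. Rela stood at 8.79 in knockout 8 with the next at 8.33, and Cidea at 6.41 in control 5, an array with adipocyte transcripts, with the next at 5.16. Adipoq stood at 6.3 in knockout 1, another such array, with the next at 3.52. At the low end were control 1 for Agt (11.34, the next at 11.54) and for Rab3gap2 (6.39, the next at 6.64), knockout 4 for Cpa1 (4.49, the next at 5.04) and knockout 8 for Crp (9.9, the next at 10.8).

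The probe set listed for both Saa1 and Saa2 is outside the gene-level results, and it was higher in knockout by 1.87 log2 units.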

How the results depend on the processing

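Lcn2, Orm2, Orm3 and Saa2 kept their direction and their call under every alternative run that tested them, leaving out each liver in turn included, except that Orm3 fell below the filter at the 50th percentile and was not tested there. Saa2 had its highest adjusted p without the 3 arrays with adipocyte transcripts (0.0418) and lay between 1.42 and 1.99 without single livers. Saa3 and Hp passed under none. The number of members lower in knockout was 0 to 1 without single livers, the 1 being Orm1 without knockout 7. Differences near 0 changed sign, from -0.0596 to 0.0732 for Saa4 and from -0.1178 to 0.1175 for Apcs without single livers, with values for Saa4 of -0.017 after median centring, -0.041 with array weights, -0.015 without control 1, -0.06 without knockout 3, -0.044 without control 2 and knockout 3 and -0.0053 by medians. For Apcs they were -0.0007 after median centring, -0.0067 without control 4, -0.013 without knockout 1, -0.12 without knockout 3, -0.0095 without the arrays with adipocyte transcripts and -0.12 without control 2 and knockout 3, and the cause was not tested. The genes called over the table were 1673, between 1424 and 1821 without single livers, 1438 by the exact rank-sum test, 1129 without the arrays with adipocyte transcripts and 2094 with array weights. Signalling genes higher in knockout were 6, and 3 with the replicate block, after median centring and without the arrays with adipocyte transcripts. Other positive acute phase genes higher were 6, and 3 without those arrays. Receptors and partners went from 2 higher and 2 lower to 1 and 1 above the 50th percentile, where fewer genes were tested, and without those arrays, and the lower count was 1 to 3 without single livers, with 1 without control 8 or knockout 2. The replicate numbers are shared by both genotypes, and the labels do not say whether they pair the livers. Same-numbered deviations correlated between -0.262 and 0.235, and 1 of 8 controls correlated best with its own number. Such correlations cannot settle whether there was a pairing. With that block Saa2 had an adjusted p of 0.00663 and 1524 genes were called, and no member's call was altered. Small differences in Hp, Apcs and Saa4 are limited by 8 arrays per genotype.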
